A study of Mus musculus with 6 samples.

Results

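The 10 genes described here encode the machinery that fills, docks and fuses neurotransmitter vesicles: the SNARE genes Snap25, Stx3 and Vamp2, the SNARE regulator Cplx4, the calcium sensor Syt1, the vesicle membrane genes Syp and Sv2b, the vesicular glutamate transporter Slc17a7, the priming factor Unc13b and the small GTPase Rab3a. They were taken by gene symbol as the copies on the main chromosomes, 10 of 52143 genes in the deposited gene table. Rab3a also has a copy on a genome patch sequence, which is shown beside it. Photoreceptors release glutamate continuously in darkness from vesicles held at a synaptic ribbon, and light slows that release. At such a synapse a vesicle SNARE pairs with 2 SNAREs of the plasma membrane, complexins clamp or assist the assembled complex, and calcium triggers fusion. Photoreceptor terminals are known to use syntaxin 3 in place of the syntaxin 1 of conventional synapses, and complexins 3 and 4 in place of complexins 1 and 2.

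The study compared mouse retinal cells that had received a short hairpin RNA (shRNA) plasmid by electroporation in vivo on postnatal day 0. Control animals received the pLKO.1 plasmid with a scrambled shRNA and the others a plasmid with an shRNA against Jun, a bZIP transcription factor, each at 2.5 µg/µl in 0.4 µl. Both groups also received a vector in which the Nrl promoter, active in rods, drives EGFP (1.5 µg/µl, 0.4 µl), and cells positive for EGFP were flow-sorted on postnatal day 10. There were 3 libraries per group, made from full-length cDNA of low-input RNA, with no strain, litter or number of animals per library given in the labels. The p-values therefore rest on differences among these libraries, which may be technical in part.

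Library totals ranged from 32150086 to 105800769 estimated counts in the controls and from 13211279 to 13998395 in the libraries labelled Jun knockdown, so depth and group cannot be told apart. Jun itself (ENSMUSG00000052684) had 6.47, 5.85 and 7.16 CPM (counts relative to the library's scaled total) in controls 1 to 3 and 1.84, 17.6 and 19.3 CPM in knockdown libraries 1 to 3. It was lower in 1 of 3, and the log2 fold change was 0.99 (SE 1.44, edgeR adjusted p = 0.764), so the labels are used below as labels only. The summed level of 10 rod markers ran from 104277 to 115730 CPM in controls and from 10813 to 14956 CPM in the labelled libraries. None of those markers was at 0, and 7 of 10 passed as lower. The summed level of 12 bipolar cell markers, whose cells share ribbon synapse genes with photoreceptors, ran from 1555 to 2134 CPM and from 1357 to 2256 CPM. Its members moved apart within that sum: Prkca passed as higher and Sebox as lower, Grm6, Trpm1 and Pcp2 lay above every control in each labelled library, and Otx2, which photoreceptors also express, lay below. For 8 cone markers the ranges were 2065 to 6248 and 1158 to 1647 CPM, and for 10 Müller glia markers 1928 to 2224 and 278 to 370 CPM. Of the cone markers 1, Gnb3, passed as lower. Gnat2 also lay below every control in each labelled library, and Cngb3 lay above. Of the Müller glia markers 0 passed. For 10 microglia markers the ranges were 823 to 1112 and 1.75 to 5.69 CPM. Of 9 tested, 4 passed as lower. In the labelled libraries 8 of the 10, these 4 among them, stayed under 1 CPM, so those calls add no support. For 12 amacrine and horizontal cell markers the ranges were 16.0 to 63.8 and 17.2 to 62.4 CPM. Lhx1 was at 0 in the labelled libraries and at most 0.04 CPM in controls. For 8 ganglion cell markers the ranges were 3.38 to 48.2 and 1.77 to 15.6 CPM. Sncg was at 0 in the labelled libraries and at most 0.08 CPM in controls. The part of depth and of these cells in the results below was not tested.

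Of the 10 members 2 passed as lower in the libraries labelled Jun knockdown, Snap25 and Cplx4, and 0 as higher (edgeR's quasi-likelihood test, Benjamini-Hochberg adjustment over 12815 tested genes, threshold 0.05). Over all tested genes 1.67% passed, 1.35% as lower and 0.32% as higher, which is 173 lower and 41 higher. That split depended on scaling, with 89 lower and 55 higher under upper quartile scaling and 79 and 68 under library totals. All 10 members were among the tested genes. At an unadjusted p under 0.05 there were 4 members, all lower and 0 higher, beside 16.8% of tested genes (10.7% lower and 6.13% higher). DESeq2 and limma-voom also called 0 members higher. In 5 members every labelled library lay below every control and in 1, Unc13b, above, where 28.3% of tested genes had groups without overlap (15.7% lower and 12.6% higher). The median log2 fold change was -1.30 over the members and -0.12 over all tested genes. In these bulk samples fewer cells of a type and less RNA per cell cannot be told apart.

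**Figure D1:**
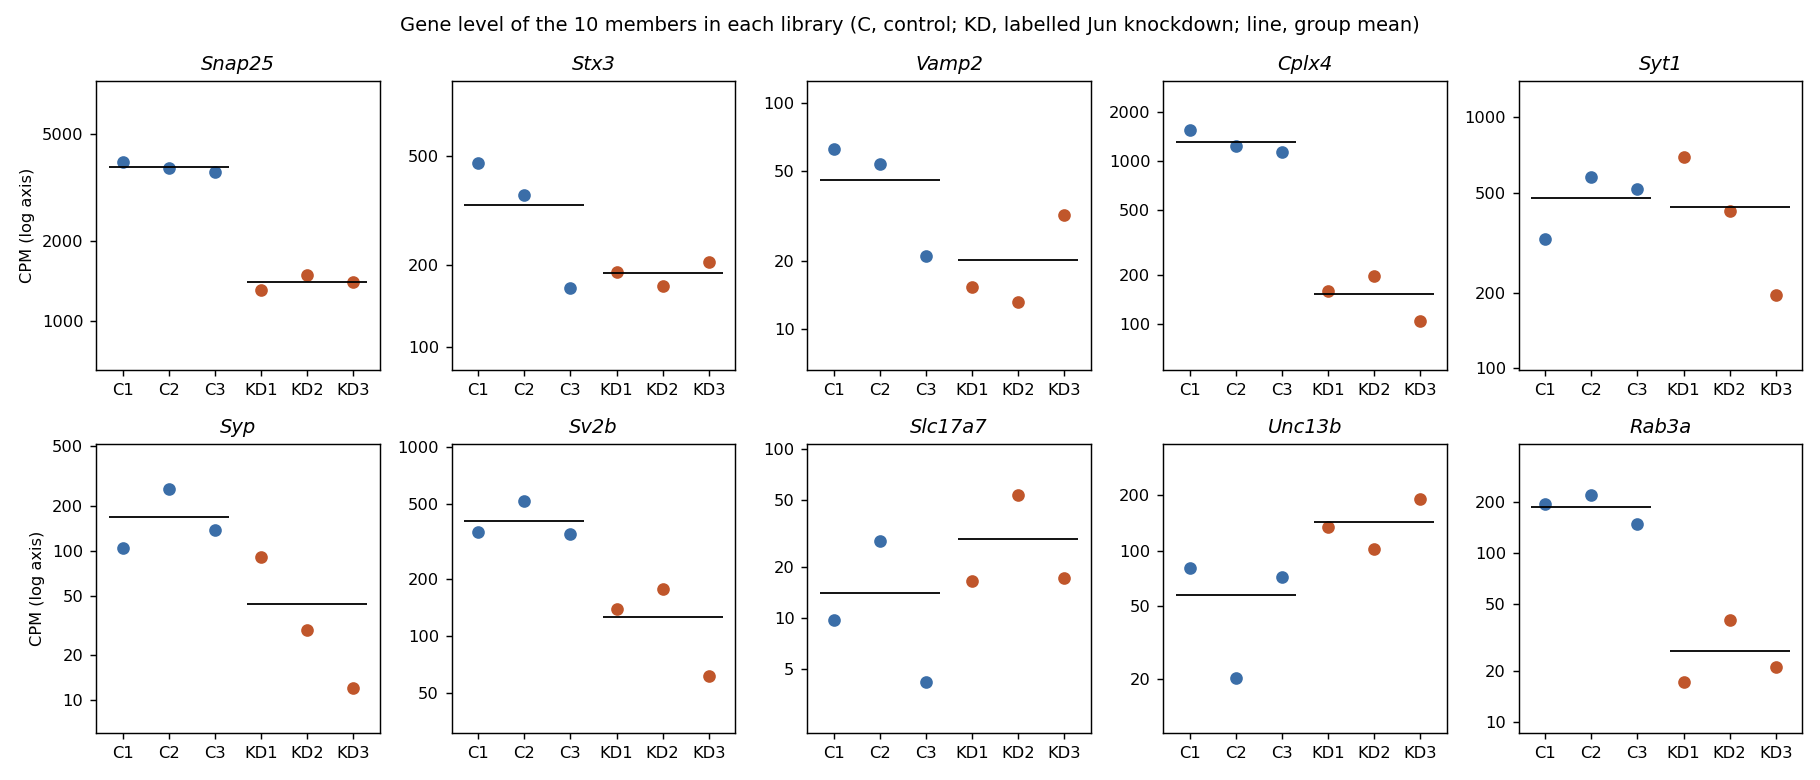
Level of each of the 10 genes in the 6 libraries, in CPM on a log axis with its own range per panel. C1 to C3 are controls, KD1 to KD3 the libraries labelled Jun knockdown, and lines are group means. Snap25, Cplx4, Rab3a, Syp and Sv2b have all 3 labelled libraries below the controls, Unc13b has them above, and the other 4 overlap.

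Levels were compared between genes per transcript length, as TPM, which divides by transcript length and by the library's sum, computed from the transcript counts. Snap25 was the most abundant member in controls at 2527 ± 229 TPM (SD, n = 3), and Cplx4 followed at 884 ± 139 TPM. These levels were apart from each other and from the rest in all 3 controls. Stx3 (171 ± 80.2 TPM), Rab3a (169 ± 44.2), Syt1 (134 ± 43.8), Sv2b (99.3 ± 31.1) and Syp (89.9 ± 52.0) formed a middle group in which neighbours in the order overlapped between libraries. Vamp2 (28.4 ± 13.7 TPM) lay below Syp in every control, and it overlapped with Unc13b (12.2 ± 6.55), as Unc13b did with Slc17a7 (7.16 ± 6.93). In the libraries labelled Jun knockdown Snap25 was again first at 1269 ± 245 TPM. Syt1 (160 ± 88.6 TPM), Cplx4 (140 ± 61.9) and Stx3 (127 ± 4.64) came next and overlapped. Cplx4 thus stood apart from Stx3 and Syt1 in the controls and not in the labelled libraries.

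Snap25 (ENSMUSG00000027273, chromosome 2, 136713453 to 136782428, GRCm38) encodes the plasma membrane SNARE that gives 2 helices to the fusion complex. Its level was 3939, 3727 and 3598 CPM in controls 1 to 3, against 1315, 1485 and 1399 CPM in knockdown libraries 1 to 3. Each group was tight and the groups were far apart. Snap25 was 2.68-fold lower, -1.42 on the log2 scale (SE 0.20, edgeR adjusted p = 0.0128). The call ended under upper quartile scaling (adjusted p = 0.0571), library totals (0.0635) and DESeq2 (0.264), and without control 1 (0.0597) or control 3 (0.0650).

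Snap25 RNA is known to be made with 1 of 2 mutually exclusive copies of an exon, which change a few residues of the protein. The annotation holds both as coding exon 4, of 118 bases each, in Snap25-201 (chr2:136770057-136770174, plus strand, GRCm38) and Snap25-202 (chr2:136769743-136769860, plus strand). They are shown because these bases tell the 2 coding sequences apart and the share of the forms is given next. Each form has 618 coding bases, while the whole transcripts have 2116 and 1014 bases. They thus also differ outside the coding sequence, and their share does not measure the choice of this exon alone. Capitals mark the 31 bases that differ between them.
Snap25-201: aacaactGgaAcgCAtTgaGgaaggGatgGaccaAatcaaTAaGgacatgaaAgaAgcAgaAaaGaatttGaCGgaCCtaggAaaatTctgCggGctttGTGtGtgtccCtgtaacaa
Snap25-202: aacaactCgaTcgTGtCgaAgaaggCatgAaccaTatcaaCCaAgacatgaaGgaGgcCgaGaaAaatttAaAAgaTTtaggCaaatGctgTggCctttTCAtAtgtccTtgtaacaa
Snap25-201 carried most of the counts of the gene in all 6 libraries, between 83.9% and 93.2%. Of the counts of both coding forms, Snap25-202 held 7.96%, 8.74% and 11.0% in controls, against 2.07%, 6.42% and 0.05% under the knockdown label. Every labelled library lay below every control (exact permutation p = 0.1, the smallest that 3 against 3 allows), and knockdown library 3 had almost none. Snap25-201 as a transcript fell by 1.45 on the log2 scale (SE 0.17, edgeR adjusted p = 0.0170 over 20706 transcripts, of which 0.662% passed, 0.604% as lower). This call ended with limma-voom (adjusted p = 0.116), under upper quartile scaling (-0.73, 0.111) and library totals (-0.66, 0.109). It also ended without control 1, 2 or 3 (0.0922, 0.0588 and 0.0676) and without knockdown library 1 or 3 (0.0591 and 0.0520).

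The remaining Snap25 form, Snap25-203, is annotated as a retained-intron transcript. It has 3 exons, and the last of them runs 4557 bases past the end of exon 3 into the following intron. It held 0.43%, 0.00% and 0.05% of the Snap25 transcript counts in controls, against 14.4%, 4.22% and 6.78% under the knockdown label. All labelled libraries were above all controls. The difference in mean share was 8.29 percentage points, and 5.34 without knockdown library 1. Its change in share within the gene did not pass (diffSpliceDGE in edgeR, adjusted p = 0.196). With protein-coding transcripts alone, Snap25 differed by -0.88 on the log2 scale (SE 0.22, edgeR adjusted p = 0.0878) and did not pass. That fit moved the median gene by 0.43 on the log2 scale.

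Stx3 (ENSMUSG00000041488, chromosome 19, 11775118 to 11819403) encodes syntaxin 3, the plasma membrane syntaxin of ribbon synapses. Levels of 470, 360 and 165 CPM in the controls compared with 189, 167 and 205 CPM in the libraries labelled Jun knockdown. Control 3 lay below all of the labelled libraries, so the groups overlapped. On the log2 scale the difference was -0.83 (SE 0.50, edgeR adjusted p = 0.437), with an interval of 2 SE on each side from -1.83 to 0.18. With protein-coding transcripts alone it was -0.05 (SE 0.54, adjusted p = 0.973). The controls ranged more widely than the labelled libraries.

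Its coding transcripts differ in their ends. Stx3-203 and Stx3-202 share 8 coding exons and their first 677 coding bases, and each then has coding exons 9 and 10 of its own, which encode the end of the SNARE helix and the membrane anchor. Syntaxin 3 forms with other ends are known as 3A and 3B, and 3B is the form described at retinal ribbon synapses. Which of these transcripts encodes which was not settled from the files. The 2 versions of exon 9 have 111 bases each and 61.3% identity, and lie at chr19:11782800-11782910 and chr19:11783026-11783136 (GRCm38, minus strand). Capitals mark the 43 bases that differ.
Stx3-203 exon 9: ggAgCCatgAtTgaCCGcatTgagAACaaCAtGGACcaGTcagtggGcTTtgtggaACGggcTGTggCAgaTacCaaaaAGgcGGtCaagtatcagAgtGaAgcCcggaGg
Stx3-202 exon 9: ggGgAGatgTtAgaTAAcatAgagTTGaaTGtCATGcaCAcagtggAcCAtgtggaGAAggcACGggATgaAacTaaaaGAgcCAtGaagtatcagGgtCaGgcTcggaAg
Their last coding stretches, of 75 and 81 bases, lie at chr19:11777096-11777170 and chr19:11781600-11781680 (minus strand). They are shown without capitals because their lengths differ.
Stx3-203 exon 10: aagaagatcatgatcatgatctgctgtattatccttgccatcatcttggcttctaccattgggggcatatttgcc
Stx3-202 exon 10: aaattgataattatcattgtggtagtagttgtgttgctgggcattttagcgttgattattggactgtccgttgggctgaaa

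The balance of these ends differed between the groups. Of both ends' counts, that of Stx3-203 held 84.9%, 83.4% and 89.9% in controls, against 37.1%, 54.1% and 47.9% under the knockdown label. Stx3-201, annotated as subject to nonsense-mediated decay, was counted with Stx3-203 there, and its end was not compared. The 3 labelled libraries lay well below the 3 controls (exact permutation p = 0.1, the smallest possible). The difference in means was -39.7 percentage points, and it ranged from -43.6 to -35.1 when 1 library was left out at a time. Stx3-201 held 34.6% of the Stx3 counts in control 3 and at most 0.16% in the other libraries. Among protein-coding forms alone, Stx3-203 held 84.9%, 82.9% and 84.5% in controls and 37.1%, 54.0% and 47.9% in the labelled libraries. A share of the leading coding transcript that was lower without overlap was found in 6.11% of 2080 genes, and among the members only in Stx3 of the 8 that could be examined. The test of usage over all transcripts did not pass for Stx3-203 (diffSpliceDGE in edgeR, adjusted p = 1.00) or Stx3-202 (0.981). As single transcripts, Stx3-203 differed by -1.64 on the log2 scale (SE 0.64, edgeR adjusted p = 0.265) and Stx3-202 by 1.02 (SE 0.81, adjusted p = 0.629). The shift is thus a difference in shares that the transcript-level tests did not call.

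Vamp2 (ENSMUSG00000020894, chromosome 11, 69088490 to 69092384) encodes synaptobrevin 2, the SNARE on the vesicle. Controls 1 to 3 had 62.6, 53.4 and 21.1 CPM of it, and knockdown libraries 1 to 3 had 15.2, 13.1 and 31.9 CPM. Knockdown library 3 lay above control 3, so the groups overlapped. This gave a log2 fold change of -1.19 (SE 1.08, edgeR adjusted p = 0.609), and -0.55 (SE 1.15, adjusted p = 0.855) with protein-coding transcripts alone. Vamp2-201 carried 85.9% to 100% of its counts.

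Cplx4 (ENSMUSG00000024519, chromosome 18, 65955727 to 65970178) encodes complexin 4, a SNARE regulator of retinal ribbon synapses. Its level was 1547, 1233 and 1135 CPM in controls 1 to 3, against 158, 197 and 104 CPM in knockdown libraries 1 to 3. The highest labelled library was far below the lowest control. Cplx4 was 8.54-fold lower, -3.09 on the log2 scale (SE 0.38, edgeR adjusted p = 0.00714). Its single annotated transcript, Cplx4-201, gave -3.28 (SE 0.37, adjusted p = 0.0146). The transcript's call ended under library totals (0.0586), without control 1, 2 or 3 (0.0922, 0.0588 and 0.0685) and without knockdown library 1 (0.0503). The gene has no retained-intron form, and with protein-coding transcripts alone it was again called at -2.61 (SE 0.38, edgeR adjusted p = 0.0146, where 1.42% of 9450 genes passed). The gene's call ended without control 1 (-2.99, adjusted p = 0.0532) and held in the other 19 alternatives. Its relative Cplx3, from the pathway list below, had 327, 526 and 585 CPM in the controls against 89.7, 43.8 and 7.20 CPM under the knockdown label, also without overlap (log2 fold change -3.35, SE 0.84, adjusted p = 0.0791, named after its values were seen).

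Syt1 (ENSMUSG00000035864, chromosome 10, 108497650 to 109010982) encodes synaptotagmin 1, a fast calcium sensor of release. Levels of 327, 579 and 518 CPM in the controls compared with 697, 424 and 196 CPM in the libraries labelled Jun knockdown. Knockdown library 1 was the highest of the 6 and knockdown library 3 the lowest. The log2 fold change was -0.11 (SE 0.50, edgeR adjusted p = 0.928), with an interval of 2 SE on each side from -1.12 to 0.89, and its sign turned in 7 of 20 alternatives. Retained-intron forms held 0.02%, 2.01% and 6.64% of its counts in controls and 8.65%, 9.93% and 8.42% in the labelled libraries, with no overlap. This sum joined forms that moved apart. Syt1-203 held 0.02%, 1.93% and 5.50% in controls and 0% in every labelled library. Syt1-204 held 0%, 0.08% and 1.14% in controls and the whole of the share in the labelled libraries.

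Of the 9 members whose retained-intron share could be examined, Snap25 and Syt1 had a higher share in all labelled libraries, where 17.1% of 2257 genes did. In no member was it lower in all of them, as in 3.81% of genes. Over the 10 members together the share was 0.46%, 0.57% and 0.73% in controls and 11.2%, 5.95% and 6.62% in the labelled libraries. Over all protein-coding genes it was 2.78%, 3.56% and 3.35% and then 7.99%, 9.63% and 7.84%. Both summed shares were thus higher in each labelled library, and that of the members started lower in the controls. The members' sum weighs most on those with many counts, such as Snap25, and is not a trait of each member. Slc17a7 held 89.6%, 31.1% and 88.2% in controls. The mean share was lower under the knockdown label in Stx3 and Vamp2, absent in Cplx4 and higher in the other members. The part of this share in the gene-level results was not tested beyond the fit on protein-coding transcripts.

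**Figure D2:**
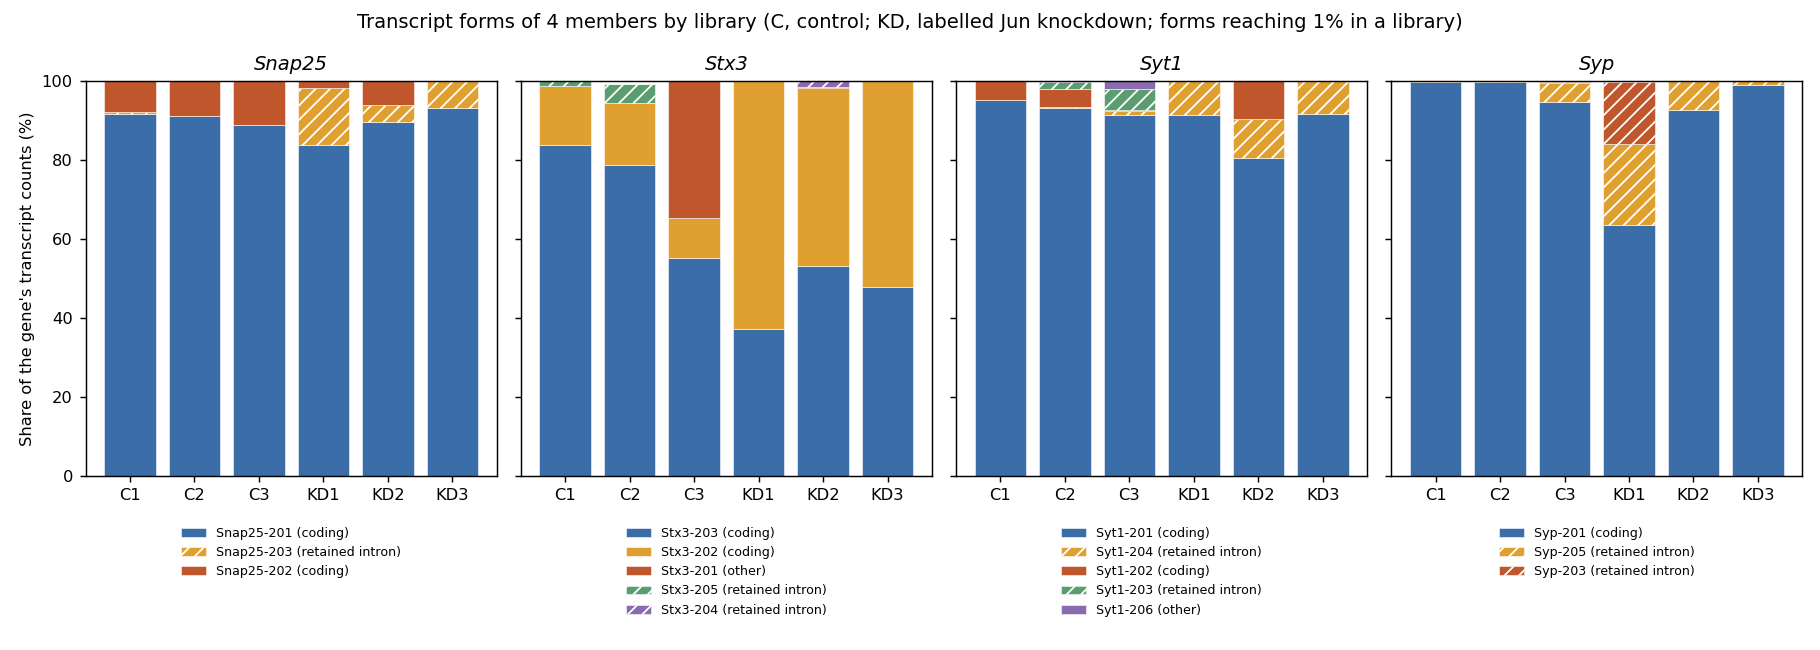
Stacked bars give the percent of each gene's transcript counts held by each annotated form in the 6 libraries (C, control; KD, labelled Jun knockdown), with forms that reach 1% in any library and hatching for retained-intron forms. Stx3-203 holds 55.2% to 83.8% in controls and 37.1% to 53.1% in the labelled libraries, and Snap25-203 reaches 14.4% in knockdown library 1.

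Syp (ENSMUSG00000031144, chromosome X, 7638471 to 7653256) encodes synaptophysin, an abundant protein of the vesicle membrane. Controls 1 to 3 had 105, 260 and 137 CPM of it, and knockdown libraries 1 to 3 had 90.9, 29.3 and 12.04 CPM. The groups did not overlap, although knockdown library 1 came close to control 1. On the log2 scale this came to -1.93 (SE 0.88, edgeR adjusted p = 0.310). In knockdown library 1, retained-intron forms held 36.5% of the Syp transcript counts, against 7.42% and 0.95% in the other labelled libraries and 0.12%, 0.13% and 4.96% in controls. The coding transcript Syp-201 gave a log2 fold change of -3.24 (SE 0.78, adjusted p = 0.0949), and all coding transcripts together gave -2.54 (SE 0.79, adjusted p = 0.133).

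Sv2b (ENSMUSG00000053025, chromosome 7, 75114894 to 75309262) encodes a synaptic vesicle glycoprotein of the SV2 family. Its level was 357, 522 and 347 CPM in controls 1 to 3, against 139, 178 and 61.6 CPM in knockdown libraries 1 to 3, without overlap. Sv2b differed by -1.69 on the log2 scale (SE 0.52, edgeR adjusted p = 0.146). Its transcripts Sv2b-201 and Sv2b-202 have the same coding exons. Of its coding counts, Sv2b-201 held 72.8%, 71.0% and 61.9% in controls and 84.5%, 77.2% and 93.7% in the labelled libraries, again without overlap.

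Slc17a7 (ENSMUSG00000070570, chromosome 7, 45163949 to 45176142) encodes VGLUT1, which loads glutamate into vesicles and is the transporter known from rods. Levels of 9.65, 28.3 and 4.18 CPM in the controls compared with 16.5, 53.5 and 17.3 CPM in the libraries labelled Jun knockdown. Library 2 was the highest of each group, and the groups overlapped. The gene-level log2 fold change was 1.05 (SE 1.30, edgeR adjusted p = 0.722). Retained-intron forms held 89.6%, 31.1% and 88.2% of its counts in controls and 94.7%, 77.9% and 94.8% in the labelled libraries, most of them in every library but control 2. The leading coding form, Slc17a7-201, held 34.6, 1843 and 13.8 estimated counts in controls and 13.8, 214 and 13.9 in the labelled libraries. With protein-coding transcripts alone the sign turned, to -0.25 (SE 1.98, adjusted p = 0.966), so no direction can be given for this gene.

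**Figure D3:**
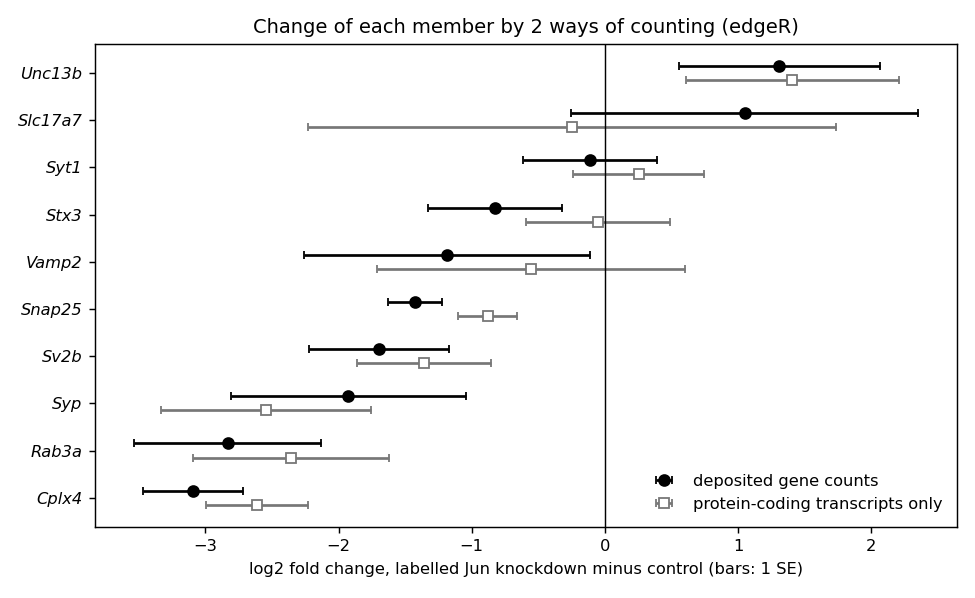
Log2 fold change of each member, labelled Jun knockdown minus control, with bars of 1 SE (edgeR), from the deposited gene counts (filled circles) and from protein-coding transcripts only (open squares). Cplx4 lies at -3.09 and -2.61 by these counts, Snap25 at -1.42 and -0.88, and Slc17a7 on opposite sides of 0.

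Unc13b (ENSMUSG00000028456, chromosome 4, 43058953 to 43264871) encodes Munc13-2, which opens syntaxin and primes docked vesicles. Controls 1 to 3 had 80.9, 20.3 and 71.5 CPM of it, and knockdown libraries 1 to 3 had 135, 102 and 191 CPM, and it was the only member with every labelled library above every control. The log2 fold change was 1.31 (SE 0.76, edgeR adjusted p = 0.412). The forms behind this level differed from library to library. Unc13b-201 held 89.2%, 99.5% and 100% of its transcript counts in controls and 75.3%, 25.3% and 80.6% in the labelled libraries. The coding form Unc13b-215 held 11.3%, 71.5% and 0.53% in knockdown libraries 1 to 3, against 0.13%, 0.33% and 0% in controls. Its log2 fold change was 9.33 (SE 2.76, edgeR adjusted p = 0.126). That change rested mostly on knockdown library 2, at 136 CPM, against 16.1 and 0.43 CPM in knockdown libraries 1 and 3. Retained-intron forms held 12.9% in knockdown library 1, 0% in library 2 and 18.6% in library 3. Unc13b-201 alone gave a log2 fold change of 0.09 (SE 0.85, adjusted p = 0.973).

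Rab3a (ENSMUSG00000031840, chromosome 8, 70754679 to 70758677) encodes a GTPase that tethers vesicles at the active zone. Its level was 193, 219 and 148 CPM in controls 1 to 3, against 17.2, 40.2 and 21.2 CPM in knockdown libraries 1 to 3, with a wide gap between the groups. The log2 fold change was -2.83 (SE 0.70, edgeR adjusted p = 0.0770). It did not pass there, and it passed with DESeq2 (adjusted p = 0.0198) and with limma-trend on the deposited normalised signal (0.0340 and 0.0360 with pseudocounts of 0.5 and 2). The patch copy (ENSMUSG00000111277) had 22.5, 58.3 and 37.9 CPM in the controls and 0 in all 3 labelled libraries, 7129 counts against 0. With the group's 0 set to a floor of 3 counts, this copy was at least 735-fold lower. Control 2 held most of the 7129 counts, and without it the bound was at least 464-fold. Such a bound covers counting error only and does not bound a change of the gene. The copy passed the count filter through the controls only, so its edgeR adjusted p (0.0481) adds no support. Reads of the gene may be split between the copies, and with both added the log2 fold change was -3.11 (adjusted p = 0.0553).

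Rab3a transcripts moved unevenly. Rab3a-204, which has the same coding exons as Rab3a-201, held 1036, 3865 and 1932 estimated counts in controls and 0, 0 and 10.6 in the labelled libraries. Rab3a-201 held 85.3%, 72.8% and 54.5% of the coding counts in controls and 100%, 100% and 96.9% in the labelled libraries. With Snap25-201 and Sv2b-201, this made 3 of 8 members whose leading coding form had a higher share without overlap, where 11% of 2080 genes did. Over all members, 2 of 22 tested transcripts passed, Snap25-201 and Cplx4-201, and 11 had an unadjusted p under 0.05, as did 15.5% of all tested transcripts. With limma-voom the 2 called were Cplx4-201 and Rab3a-204 (adjusted p = 0.0123), and not Snap25-201 (0.116). Rab3a-204 passed the count filter through the controls, with 0, 0 and 10.6 counts in the labelled libraries, so its call adds no support. In edgeR it did not pass (adjusted p = 0.143). Of 20 transcripts tested for usage 0 passed (0.357% of 13158 did), and 3 had an unadjusted p under 0.05 (9.35% of all did). They were Snap25-203, Unc13b-215 and Rab3a-204, and the limit given for Rab3a-204 holds here too.

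The 10 members are part of a list of 120 genes of the synaptic vesicle cycle, of which 101 were tested. Of these, 5 passed as lower and 0 as higher, beside 1.35% and 0.32% of all tested genes. Besides Snap25 and Cplx4 they were Atp6v0c, Ap2m1 and Hspa8. At an unadjusted p under 0.05 there were 19, 4 of them higher, a share near the 16.8% of all tested genes. DESeq2 gave an adjusted p to 96 genes of the list and called 8 lower and 2 higher, Syt7 and Syn3. It called 7.38% of all genes lower and 5.52% higher. Syt7 and Syn3 were near 0 in every control and were tested through the labelled libraries, so these calls add no support. Some of the 8 lower genes were near 0 in the labelled libraries, with the same limit. In edgeR 76 of the 101 were negative and 25 positive, beside 6679 and 6136 of all tested genes. The median log2 fold change was -0.75 against -0.12. Groups without overlap were lower in 25 and higher in 6 of the 101, beside 15.7% and 12.6% of all tested genes. Without the members 91 were tested, 3 passed as lower, 68 were negative and 23 positive. Their median was -0.63, and groups without overlap were lower in 20 and higher in 5. Signs depend on scaling, as upper quartile scaling moved the median gene by 0.39 and library totals by 0.49. The role groups below include the members, and the same all-gene values stand beside them.

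Among 27 tested SNARE and SNARE regulator genes 2 passed as lower, 23 were negative and the median was -0.83. Snap47, a SNAP-25 relative, had 244, 259 and 135 CPM in the controls against 2.11, 17.6 and 1.11 CPM under the knockdown label (log2 fold change -4.94, SE 1.19, edgeR adjusted p = 0.0705). It passed without a filter (0.000106), with DESeq2 (0.00399), limma-voom (0.0490), limma-trend (0.0288 and 0.0265) and all transcripts summed (0.0445), and without knockdown library 2 (-7.02, 0.0306). Of 8 tested calcium sensors 0 passed, and the median was -0.19. Syt7, a slow high-affinity sensor, had 0.25, 0.00 and 0.11 CPM in the controls against 6.47, 1.18 and 5.69 CPM under the knockdown label (5.22, SE 1.90, adjusted p = 0.210, and 0.0157 with DESeq2). As its controls were near 0, the DESeq2 call adds no support. Syt4 and Syt9 differed by 1.52 (SE 1.86) and 1.46 (SE 1.50). Their groups overlapped.

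Of 27 tested vesicle membrane and transporter genes 1 passed, and the median was -1.03. That gene was Atp6v0c, the membrane ring of the proton pump that energises vesicle filling, at 893, 912 and 993 CPM in the controls against 140, 246 and 208 CPM under the knockdown label (-2.24, SE 0.37, adjusted p = 0.0238). Its call ended under upper quartile scaling (0.0593), library totals (0.0643), DESeq2 (0.0585) and protein-coding transcripts alone (0.0685). It also ended without control 1, 2 or 3 (0.101, 0.0880 and 0.114) and without knockdown library 1 or 3 (0.0669 and 0.0655). Atp6v1b2, a subunit of the soluble part of the pump, gave -1.92 (SE 0.55, adjusted p = 0.116), and Syngr2, a relative of synaptophysin, gave -5.67 (SE 1.56, adjusted p = 0.104). Both had groups without overlap. Syngr2 passed with DESeq2 (7.07e-05), limma-voom (0.0278) and limma-trend (0.0431 and 0.0483). Atp6v1b2 passed without a filter (0.00319), with all transcripts summed (-3.29, 0.00940) and with protein-coding transcripts alone (-3.56, 0.0261).

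Of 15 tested genes for priming, the Rab3 cycle and SNARE recycling 0 passed, 9 were negative and the median was -0.22. Napa, which encodes alpha-SNAP, had 573, 752 and 550 CPM in the controls against 188, 220 and 170 CPM under the knockdown label (-1.70, SE 0.37, adjusted p = 0.0570). It passed without a filter (0.0428), with limma-trend (0.0274 and 0.0304) and with all transcripts summed (0.0300). Cadps, a dense-core vesicle priming factor, ranged from 0.04 to 50.5 CPM over the controls and from 11.0 to 313 CPM over the others (3.20, SE 1.78, adjusted p = 0.394).

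Of 24 tested endocytosis genes 2 passed as lower, and the median was -1.11. Hspa8, the chaperone that strips clathrin coats, had 1803, 1997 and 1374 CPM in the controls against 141, 84.0 and 197 CPM under the knockdown label (-3.62, SE 0.41, adjusted p = 0.00513). It passed in every alternative fit. Ap2m1, the cargo-binding subunit of the AP-2 adaptor, stood at 1617, 3194 and 2057 CPM and at 94.9, 84.4 and 303 CPM (-3.83, SE 0.57, adjusted p = 0.0156), and its call ended with limma-voom (0.137) and without control 1, 2 or 3 (0.0598, 0.0674 and 0.0719). Amph, which encodes the endocytic adaptor amphiphysin, stood higher in the labelled libraries, at 480, 377 and 169 CPM against 84.6, 87.7 and 90.5 CPM (1.96, SE 0.54, adjusted p = 0.104). It did not pass.

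**Figure D4:**
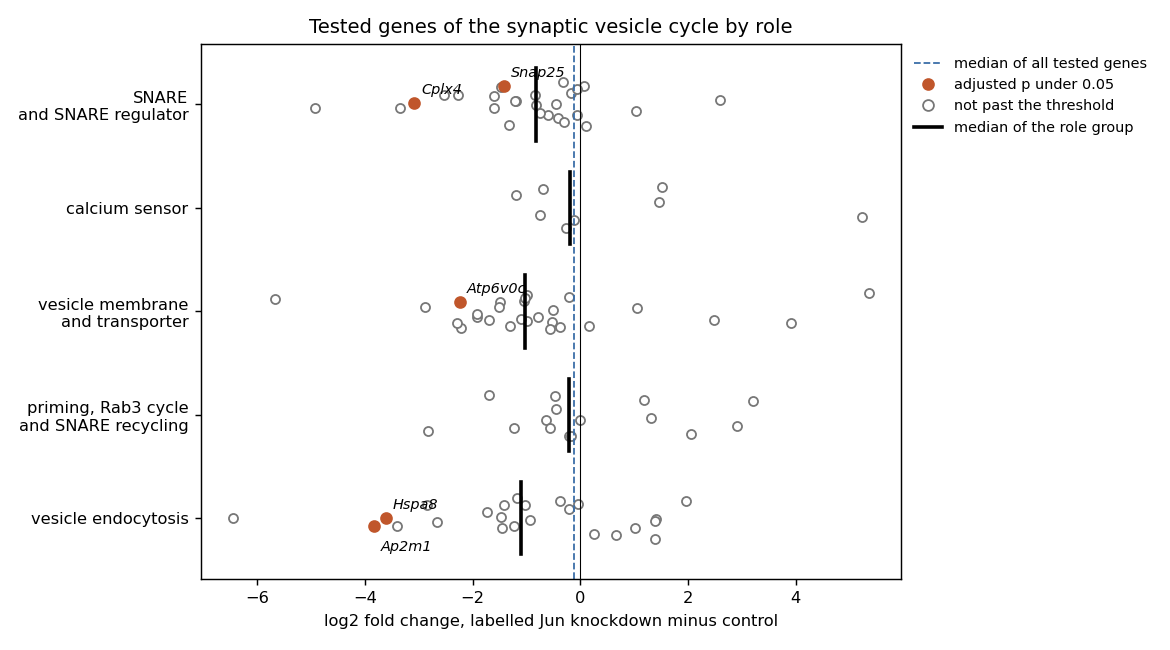
Log2 fold change (labelled Jun knockdown minus control) of the 101 tested genes of the vesicle cycle by role, with genes past the threshold filled and named. Black bars are medians of the role groups, -0.83, -0.19, -1.03, -0.22 and -1.11 from top to bottom, and the dashed line is the median of all tested genes, -0.12. Vertical scatter within a group has no meaning.

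The genes whose levels over the 6 libraries were most like those of Snap25, Vamp2 and Syt1 were found by the Euclidean distance between log2 CPM profiles, each centred on its own mean. For Snap25 they were Gm49375, a noncoding RNA, at a distance of 0.38 and Mrpl34, a mitochondrial ribosomal protein gene, at 0.41. For Vamp2 they were Mrpl54 at 0.61 and Rhot1 at 0.63, and for Syt1 Tmtc3 at 0.55 and Slc6a6 at 0.61. With 6 libraries in 2 groups these distances are a description, with no test. Gm49375 was near the floor, with 0.98 to 1.33 CPM in controls and 0.39 to 0.45 CPM in the labelled libraries.

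RefSeq promoters (GRCm38.p6), from 250 bases before to 50 after each start, were at hand for 7 of the members, 12 in all. Snap25, Vamp2 and Cplx4 had no entry. On either strand, the AP-1 motif TGANTCA, which Jun can bind with a partner, was in 0 of the 12 and in 7.81% of 32851 promoters. The cAMP response element TGACGTCA was in 0 and in 1.79%. The motif TAATCC, bound by the photoreceptor factor CRX, was in 4 promoters of 3 members (Stx3, Sv2b and Syp) and in 7.06% of all. The core TGCTGA of the NRL response element was in 1, of Sv2b, and in 19.5% of all. These are matches of letters in short windows and say nothing about binding elsewhere.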

How the data were processed

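The deposited tables hold the authors' estimated counts for genes and for transcripts, and normalised gene values. The submitters' processing notes name Trimmomatic 0.39, kallisto 0.44.0 and edgeR 3.28.1 and give no roles. No genome build is given in the sources used here, and 98.2% of the 51336 gene identifiers found in GENCODE vM21 (GRCm38) had the same position there. The deposited normalised table is a signal relative to the authors' own scale: it equals the counts over 1 constant per library, and columns summed to 1250540 to 2385208. The deposited gene counts lay nearer to transcript counts summed per base (median log2 deviation 0.04) than to plain sums (0.12, 3247 genes), so short transcripts weigh more in gene values. No step that marks strand is stated, so a gene and an antisense or overlapping partner cannot be told apart, and genes with near-identical copies, such as Hspa8, are uncertain.

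Estimated counts were rounded, passed through filterByExpr, given TMM factors and tested by group with the quasi-likelihood test of edgeR 4.0.16 in R 4.3.3, with Benjamini-Hochberg adjustment over 12815 genes or 20706 transcripts and a threshold of 0.05. SE is the size of the log2 fold change over the root of F. CPM are TMM-normalised. Shares were compared by exact two-sided permutation tests of 3 against 3 libraries, with 0.1 as the smallest p, and usage by diffSpliceDGE. Fell and rose are used of changes past the threshold. The floor of 3 counts covers counting error only.

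The 10 members and all lists were chosen with earlier results of these data known. Besides the members, the genes named were those of the vesicle cycle list past the threshold, the 3 with the smallest p in each role group, and the 2 most like Snap25, Vamp2 and Syt1. Transcripts named were the leading one of each member and those past the threshold. Others named by transcript (Snap25-202, Snap25-203, Stx3-202, Stx3-201, Syt1-203, Syt1-204, Sv2b-202, Unc13b-215 and Rab3a-204), and Cplx3 and Syn3, were chosen after their values were seen. Alternatives were other scalings and filters, DESeq2 1.42.0, limma-voom and limma-trend (limma 3.58.1, pseudocounts 0.5 and 2), thinning to the smallest total, a replicate block, each library left out, and patch copies added. Summing all or only protein-coding transcripts per gene, the usage test and limma-voom on transcripts were added after seeing the data. On simulated counts for 12815 genes of this comparison, edgeR found 0% of the genes given a log2 change of 1, 2% of those given 2, 20% of those given 4 and 74% of those given 8. The changed genes were drawn at random over most levels. These rates are therefore not those of an abundant gene with tight groups, such as Snap25.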

Additional observations from a re-analysis of the deposited data

How the results depend on the processing

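The 2 members past the threshold became 1 under upper quartile scaling, 1 under library totals, 1 with protein-coding transcripts alone, and 0 to 2 when 1 library was left out. The 5 vesicle cycle genes became 3 under upper quartile scaling and 3 under library totals, 8 with all transcripts summed per gene, and 10 without a filter, with DESeq2 and with limma-trend at either pseudocount, and they ranged from 1 to 6 when 1 library was left out. The 2 member transcripts became 1 under upper quartile scaling and 0 under library totals, and 0 to 2 when 1 library was left out. Over all genes 214 passed, against 737 without a filter, 1999 with DESeq2, 442 with limma-voom, 615 and 553 with limma-trend, 134 with protein-coding transcripts alone, and 36 to 110 when 1 library was left out. The difference in the members' retained-intron share, 7.33 percentage points, ranged from 5.70 to 8.31. The cause of these differences was not tested. The leave-one-out fits also have fewer libraries, which cannot be told apart there from the library left out. Upper quartile scaling moved the median gene by 0.39, library totals by 0.49, thinning by 0.30 and the median of ratios by 0.15 on the log2 scale. No member changed sign in these fits except Syt1 and Slc17a7.

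Replicate numbers did not pair the libraries: the deviations of same-numbered libraries from their group means correlated at 0.00, 0.01 and -0.02. With the replicate number as a block 97 genes passed, and the counts of members (2), vesicle cycle genes (5) and member transcripts (2) were as without it.

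Thinning every library to the smallest total left 2 members past the threshold and the standard errors close to what they were, 1.31 against 1.30 for Slc17a7 and 1.09 against 1.08 for Vamp2. A member that did not pass may still differ, since its interval is wide, and each standard error rests on 3 libraries per group. Slc17a7-201, the leading coding form of Slc17a7, had 13.8 to 34.6 counts in 4 of the 6 libraries.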
